A study of Mus musculus with 6 samples.

Results

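The mechanotransduction complex of hair cells is the set of proteins at the tips of the stereocilia that turns movement of the hair bundle into an electrical signal. The 9 genes examined here under its name are Tmc1, Tmc2, Lhfpl5, Tmie, Cib2, Pcdh15, Cdh23, Loxhd1 and Pjvk. Loxhd1 and Pjvk are counted with the complex below, although neither is described here as part of the channel or the tip link. All 9 were taken by symbol from the count and FPKM tables, and each matched 1 of the 34395 gene entries. RNA came from the cochlear base of C57BL/6J mice, in 3 libraries from old animals and 3 from young animals, in a study of age-related hearing loss. C57BL/6J is an inbred strain that loses hearing early, first at the cochlear base, and it carries an allele of Cdh23 that is linked to this loss, so old and young mice both carry it. No other genotype or treatment is given for either group. The labels state neither the ages in weeks or months nor the sex of the animals, nor whether a library is 1 animal or a pool. The p-values therefore measure only the spread between these libraries.

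Sound bends the hair bundle, and this tightens the tip link, a fine filament between neighbouring stereocilia. Cadherin 23 forms the upper end of the tip link and protocadherin 15 the lower end. The lower end joins a channel whose pore is built by TMC1 and, in the immature cochlea, also by its paralog TMC2, together with LHFPL5, TMIE and the calcium-binding protein CIB2. Mutations in most of these genes cause deafness in mice and humans.

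Counts over all gene entries added up to between 26245416 and 26839068 in the old libraries and to between 37084017 and 39433584 in the young libraries. The groups differed well beyond these genes: of 20157 genes tested with edgeR, 10923 passed an adjusted p of 0.05, which is 54.2%. Of the genes tested, 5427 (26.9%) were higher and 5496 (27.3%) lower in old libraries. Xist, expressed from the inactive X chromosome of females, had 0.146 ± 0.151 CPM in old libraries and 446 ± 65.8 CPM in young libraries (SD, n = 3 each). The Y-linked gene Ddx3y had 34.2 ± 3.68 CPM in old libraries and no count in young libraries, so age and the sex-linked profile cannot be told apart in any comparison below. CPM are counts divided by library size, after TMM scaling, which adjusts library totals by a trimmed mean of log ratios over genes. TMM takes most genes as unchanged, or as changed evenly in both directions, and 54.2% were called here. The 9 genes are all autosomal.

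The gene for the pore protein, Tmc1, and that for its partner Lhfpl5 were lower in the old cochlear base, at 46.8% and 41.3% of their young means. The stereocilia gene Loxhd1, the upper tip-link gene Cdh23 and Cib2 fell by less, and Pjvk, the least abundant of those tested, fell most. The calls of Loxhd1, Cdh23 and Cib2 ended in FPKM, and those of Loxhd1 and Cib2 also with library totals in place of TMM. Pcdh15, which forms the lower end of the tip link, was the only one of those tested that rose, a call that ended in 4 of the 6 fits that leave out 1 library and with transcript length in the fit. Tmie did not pass the test, and Tmc2 was too rare to be tested. Of the 8 genes that passed the filter on low counts, 6 (75%) were lower and 1 (12.5%) was higher in old libraries, against 27.3% and 26.9% of all genes tested. Their median log2 fold change was −0.69, against 0.014 over all genes tested. In CPM, 7 of the 9 genes did not overlap between groups, against 62.3% of all genes tested. For 6 of these genes all old libraries lay below the young ones (31% of all genes), and for 1 they lay above (31.2%). Pjvk entered the fit only through the young libraries, and Tmc2 is not among the 8, so these counts describe the genes tested and support nothing further.

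**Figure D1:**
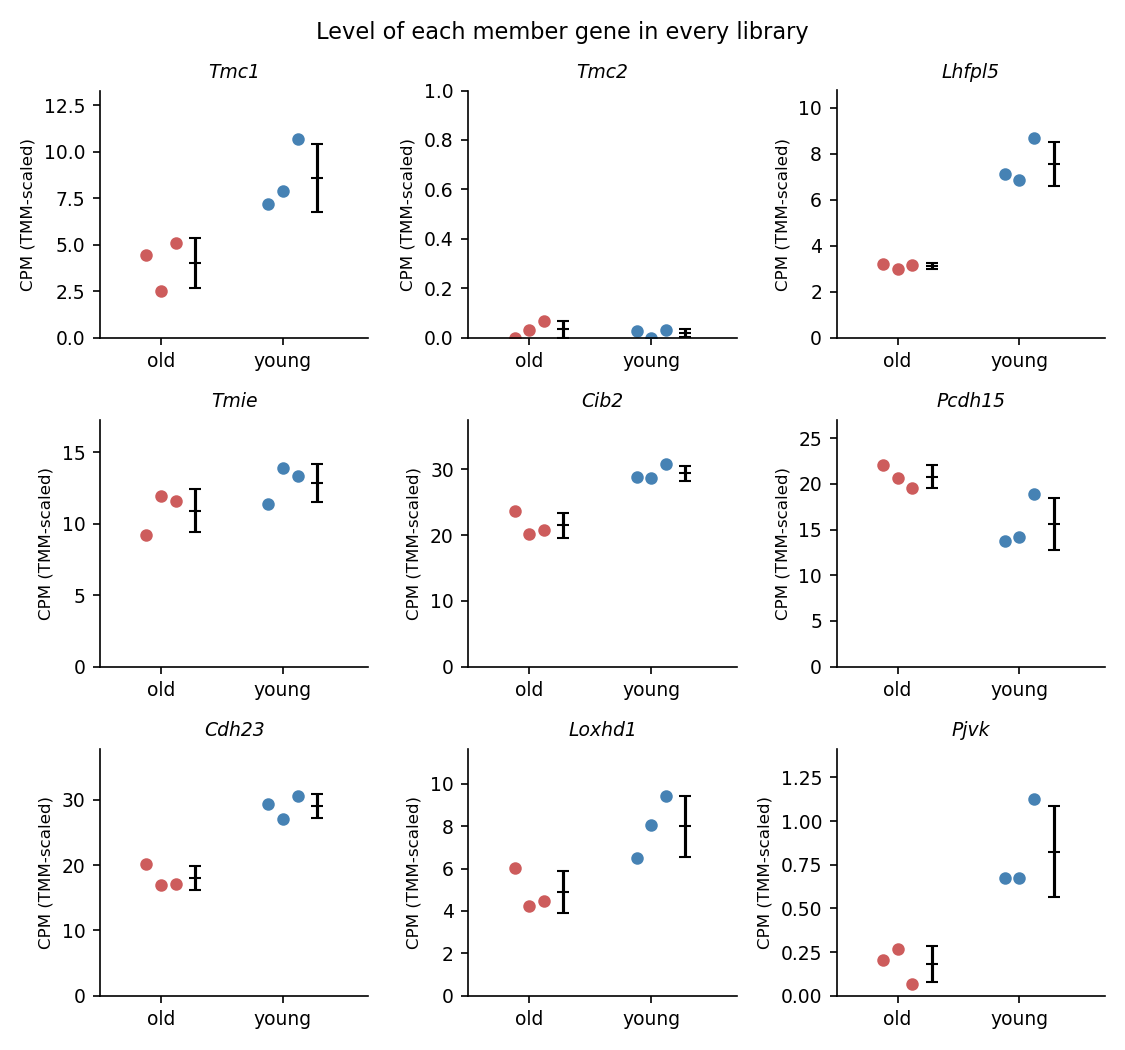
Level of each of the 9 genes in every library, in CPM scaled by TMM (vertical axes, each from 0), with the 3 old libraries left of the 3 young libraries; points are libraries and bars are the mean ± SD. Old libraries lie below young libraries for Tmc1, Lhfpl5, Cib2, Cdh23, Loxhd1 and Pjvk and above them for Pcdh15, while the groups overlap for Tmie and Tmc2.

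In bulk tissue, fewer cells of a type and less RNA per cell cannot be told apart. The 9 other hair cell genes chosen as markers (Pou4f3, Myo7a, Otof, Slc17a8, Slc26a5, Ocm, Strc, Chrna9 and Chrna10) were detected in both groups, which places hair cell RNA in these libraries. All 9 of them were lower in old libraries, with log2 fold changes between −2.33 and −0.39 and a median of −1.55. Their summed level was 96.3 to 109 CPM in old libraries and 159 to 247 CPM in young libraries. Markers of spiral ganglion neurons, the nerve cells that hair cells signal to, were all higher in old libraries (7 of 7), with sums of 2360 to 2713 CPM against 1117 to 1678 CPM in young libraries. Falls of this size were not confined to hair cell genes. Markers of the marginal cells of the stria vascularis were lower in old libraries (4 of 4, median −1.10), at 3147 to 3563 CPM in sum against 6117 to 9105 CPM in young libraries. Bone markers were lower in 3 of 4 (median −1.26), at 22.9 to 28.6 CPM in old libraries and 47.2 to 72.0 CPM in young libraries. Of 8 supporting cell markers tested, 2 were higher and 2 lower in old libraries, and of 4 Schwann cell markers 1 was lower. Neutrophil and red cell markers were lower in old libraries (4 of 4 each). Neutrophil markers summed to 33.2 to 94.9 CPM in old libraries and 560 to 781 CPM in young libraries, and red cell markers to 294 to 893 CPM in old libraries and 1544 to 3609 CPM in young libraries. Oc90 and Otol1, markers of the vestibular organs, together stayed at 0 to 0.235 CPM in old libraries and 0.122 to 0.646 CPM in young libraries. The part of these other cell types in the results was not tested.

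Tmc1 codes for the pore-forming subunit of the mature channel and lies on the minus strand at chr19:20783456-21037126 (GRCm38.p6, as are all positions here). It had 129, 75 and 147 counts in old 1, 2 and 3, which is 4.43, 2.52 and 5.09 CPM. Young 1, 2 and 3 had 256, 281 and 350 counts, or 7.17, 7.90 and 10.7 CPM. Each old library was below each young library, and old 2 was the lowest of the 6. Tmc1 averaged 4.01 ± 1.34 CPM in old libraries and 8.58 ± 1.84 CPM in young libraries (SD, n = 3 each). The old mean was 46.8% of the young mean, a log2 fold change of −1.10 ± 0.25 (SE; edgeR adjusted p = 0.00457). It passed under all 18 alternatives of scaling, filter, test, unit and left-out library, at −1.31 to −0.50. The −0.50 was on log2(FPKM + 1), where the added 1 is near the level of Tmc1, and log2(FPKM + 0.1) gave −0.81. The groups also stayed apart per unit of transcript length, at 1.14 ± 0.37 FPKM in old libraries and 2.01 ± 0.32 FPKM in young libraries.

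Tmc2, at chr2:130195194-130265189, codes for the paralog that forms the channel in developing cochlear hair cells. It was at 0, 0.92 and 2 estimated counts in old 1, 2 and 3 and at 1, 0 and 1 in young 1, 2 and 3. Both groups are at or under the floor of 3 counts taken here per group, which corresponds to 0.0376 CPM over the old and 0.0262 CPM over the young libraries. No fold change is given, and a difference was not detectable at this depth. Floors cover counting error only.

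The other Tmc genes are mostly expressed outside hair cells, and none of the 6 (Tmc3 to Tmc8) was called higher in old libraries. Tmc6 (−0.66 ± 0.12) and Tmc8 (−1.04 ± 0.27), which are expressed in immune and skin cells, were lower in old libraries by edgeR (adjusted p = 0.00115 and 0.00886). The log2 fold changes of the other four were between −0.32 and 0.68 and did not pass.

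Lhfpl5 codes for the tetraspan subunit that ties the lower tip link to the channel and lies on the plus strand at chr17:28575369-28583593. Old 1, 2 and 3 had 94, 89 and 91 counts, or 3.23, 2.99 and 3.15 CPM. Young 1, 2 and 3 had 254, 245 and 285 counts, or 7.12, 6.88 and 8.68 CPM. The old libraries lay within a narrow band well under every young library. Lhfpl5 averaged 3.12 ± 0.12 CPM in old libraries and 7.56 ± 0.98 CPM in young libraries (SD, n = 3 each), so that the old mean was 41.3% of the young mean. The log2 fold change was −1.28 ± 0.16 (SE; edgeR adjusted p = 0.000174), and it passed under all 18 alternatives at −1.56 to −0.996. The 5 paralogs did not share one direction: Lhfpl1 (−1.04 ± 0.23) and Lhfpl6, listed in the files as Lhfp (−0.63 ± 0.089), were lower in old libraries, and Lhfpl3 (0.55 ± 0.15) was higher. The edgeR adjusted p-values were 0.00326, 0.000291 and 0.0125 in that order, and Lhfpl1 is X-linked. Lhfpl2 (0.17 ± 0.099) and Lhfpl4 (0.10 ± 0.16) did not pass.

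Tmie codes for a small transmembrane subunit needed for the channel current and lies on the minus strand at chr9:110865687-110880073. It had 268, 356 and 334 counts in old 1, 2 and 3, or 9.20, 11.9 and 11.6 CPM. The young libraries had 406, 493 and 437 counts, or 11.4, 13.9 and 13.3 CPM. The groups overlapped, with young 1 below old 2 and old 3. The log2 fold change was −0.24 ± 0.14 (SE; edgeR adjusted p = 0.178), and its sign was not stable: it was 0.043 with library totals alone, 0.013 on log2(FPKM + 1) and 0.014 on log2(FPKM + 0.1). In FPKM the means were 4.70 ± 0.73 in old libraries and 4.62 ± 0.36 in young libraries. Tmie shares 244 exonic bases (7.89% of its exons) with Als2cl on the opposite strand in GENCODE M21. Whether the counting used strand is not given, so reads from that stretch cannot be told apart.

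The sequence before a gene's start can be set beside these values, since Tmc1 and Lhfpl5 fell, Tmie did not pass and Pcdh15 rose. The RefSeq table of the same build gives 1 start for each gene and matched 7 of the 9. Searched were CAGCTG and CAGATG (E-boxes, bound by factors of the family of Atoh1, the hair cell determinant), GTTGCC (part of the site of RFX factors) and TATAAA, on both strands of the 250 bases before each start. The motifs do not overlap each other in the sequences below, and capitals mark each match. Shown are the pore gene, its partners with an E-box, and Pcdh15, the gene that rose:
Tmc1, chr19:20954203-20954452, minus strand: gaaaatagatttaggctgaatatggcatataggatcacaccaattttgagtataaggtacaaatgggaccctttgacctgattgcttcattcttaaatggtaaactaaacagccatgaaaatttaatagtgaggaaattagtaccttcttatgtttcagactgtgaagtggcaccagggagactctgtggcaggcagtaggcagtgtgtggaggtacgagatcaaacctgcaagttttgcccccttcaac
Lhfpl5, chr17:28575469-28575718, plus strand: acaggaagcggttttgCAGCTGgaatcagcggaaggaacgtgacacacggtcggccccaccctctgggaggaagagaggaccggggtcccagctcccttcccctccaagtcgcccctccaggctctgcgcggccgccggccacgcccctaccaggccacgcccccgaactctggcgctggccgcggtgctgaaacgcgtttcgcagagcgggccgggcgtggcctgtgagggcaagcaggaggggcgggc
Tmie, chr9:110880074-110880323, minus strand: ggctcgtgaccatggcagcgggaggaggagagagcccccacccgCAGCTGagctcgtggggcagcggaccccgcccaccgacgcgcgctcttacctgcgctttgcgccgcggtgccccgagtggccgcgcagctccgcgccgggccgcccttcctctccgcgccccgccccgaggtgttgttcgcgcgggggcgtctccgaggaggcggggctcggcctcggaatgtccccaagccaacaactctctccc
Pcdh15, chr10:73821617-73821866, plus strand: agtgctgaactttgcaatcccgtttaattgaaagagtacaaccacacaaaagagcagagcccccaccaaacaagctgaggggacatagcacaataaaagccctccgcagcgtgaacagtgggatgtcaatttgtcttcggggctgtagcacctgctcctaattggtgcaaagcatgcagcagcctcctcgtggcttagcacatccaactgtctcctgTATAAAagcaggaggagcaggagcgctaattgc
CAGCTG was present before Lhfpl5, 234 bases from the start, and before Tmie, 206 bases from the start, that is in 2 of 7 genes and in 13% of all 32851 windows of this length. CAGATG was in none of the 7 and in 14.4% of all windows, and GTTGCC in none and in 10.4%. TATAAA was found 33 bases before the start of Pcdh15, in 1 of 7 genes and in 12.4% of all windows. The windows of Lhfpl5 and Tmie held 70.8% and 74.8% G and C, those of Tmc1 and Pcdh15 41.2% and 50.4%, and the median over all windows was 52.4%. The starts given for Tmc1, Lhfpl5 and Pcdh15 lie inside the span of the gene, so other starts of these genes are not shown. Such matches describe letters in these windows only.

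Cib2 codes for a calcium- and integrin-binding protein that binds the TMC proteins, and it is also expressed in other tissues. It lies on the minus strand at chr9:54544794-54560190. Old 1, 2 and 3 had 689, 599 and 598 counts, or 23.7, 20.1 and 20.7 CPM. Young 1, 2 and 3 had 1028, 1022 and 1009 counts, or 28.8, 28.7 and 30.7 CPM. Every old library was below every young one, at 21.5 ± 1.91 CPM on average against 29.4 ± 1.14 CPM in young libraries (SD, n = 3 each). The log2 fold change was −0.45 ± 0.098 (SE; edgeR adjusted p = 0.00327). The call ended with library totals alone (−0.18, adjusted p = 0.148) and on log2(FPKM + 1) and log2(FPKM + 0.1) (−0.15 and −0.16, limma adjusted p = 0.132 and 0.134), and in FPKM the groups overlapped at 20.2 ± 1.61 in old libraries and 22.5 ± 0.66 in young libraries. Of its exonic bases, 227 (15.8%) are shared with Sh2d7 on the opposite strand.

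Among the paralogs of Cib2, Cib1 fell in old libraries (−1.01 ± 0.15; edgeR adjusted p = 0.000331). Cib4 rose (1.16 ± 0.44; edgeR adjusted p = 0.0461) at 0.746 ± 0.158 CPM in old libraries and 0.343 ± 0.170 CPM in young libraries (SD, n = 3 each). It had 16.63, 26.2 and 22.74 estimated counts in old 1, 2 and 3 and 8.36, 19.14 and 8.39 in young 1, 2 and 3. Every old library but only young 2 reached the filter limit of 0.313 CPM. Cib4 thus entered the fit through the old libraries, and its call supports nothing further. Cib3, which binds TMC proteins in vestibular hair cells, had 0.023 ± 0.020 CPM in old libraries and 0.241 ± 0.029 CPM in young libraries and was left out by the filter for low counts.

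Pcdh15 codes for the lower end of the tip link and lies on the plus strand at chr10:73096277-74649831. It had 643.07, 617.08 and 566.01 estimated counts in old 1, 2 and 3, or 22.1, 20.7 and 19.6 CPM. Young 1, 2 and 3 had 492, 506.07 and 620.01, or 13.8, 14.2 and 18.9 CPM. All old libraries were above all young ones, but old 3 and young 3 were close to each other. Pcdh15 averaged 20.8 ± 1.25 CPM in old libraries and 15.6 ± 2.83 CPM in young libraries (SD, n = 3 each), or 133% of the young mean. The log2 fold change was 0.41 ± 0.14 (SE; edgeR adjusted p = 0.0256). It stayed positive under the 18 alternatives, at 0.30 to 0.75, but the call rested on single libraries: edgeR's adjusted p was 0.0903 without old 1, 0.0676 without old 2, 0.0771 without young 1 and 0.112 without young 2. It was also 0.0646 when transcript length was put into the fit. Spiral ganglion neuron markers rose in the same libraries, as given above, and their part in this result was not tested.

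Cdh23 codes for the upper end of the tip link and lies on the minus strand at chr10:60302748-60696513. Old 1, 2 and 3 had 588, 504 and 496 counts, or 20.2, 16.9 and 17.2 CPM. Young 1, 2 and 3 had 1047, 964 and 1007 counts, or 29.3, 27.1 and 30.7 CPM. There was no overlap, and the old libraries averaged 18.1 ± 1.82 CPM against 29.0 ± 1.81 CPM in young libraries (SD, n = 3 each). The log2 fold change was −0.68 ± 0.11 (SE; edgeR adjusted p = 0.000501). In FPKM the groups did overlap, at 2.16 ± 0.22 in old libraries and 2.51 ± 0.23 in young libraries, and the call ended on log2(FPKM + 1) and log2(FPKM + 0.1) (−0.15 and −0.21, limma adjusted p = 0.298 and 0.320).

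Both cadherins of the tip link are thought to meet end to end, so their ratio within each library was compared. The log2 ratio of Pcdh15 to Cdh23 (each as CPM + 0.5) was 0.13, 0.28 and 0.19 in old 1, 2 and 3 and −1.06, −0.91 and −0.69 in young 1, 2 and 3. The ratio was higher in every old library than in any young one. In CPM this was fixed in advance, since Pcdh15 was higher and Cdh23 lower in every old library. The separation and its p-value therefore add no support to the results of the single genes. It sets the 2 genes in order only in counts, which depend on transcript length: in FPKM Pcdh15 was above Cdh23 in every old library and also in young 1 and young 3. The mean ratio was 0.20 ± 0.080 in old libraries and −0.88 ± 0.19 in young libraries (SD, n = 3 each), a difference of 1.08 (exact permutation p = 0.1, the smallest that 3 against 3 libraries allow; 0.167 adjusted over the 5 pairs compared). The difference was 0.84 in FPKM and between 0.99 and 1.18 with any 1 library left out.

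**Figure D2:**
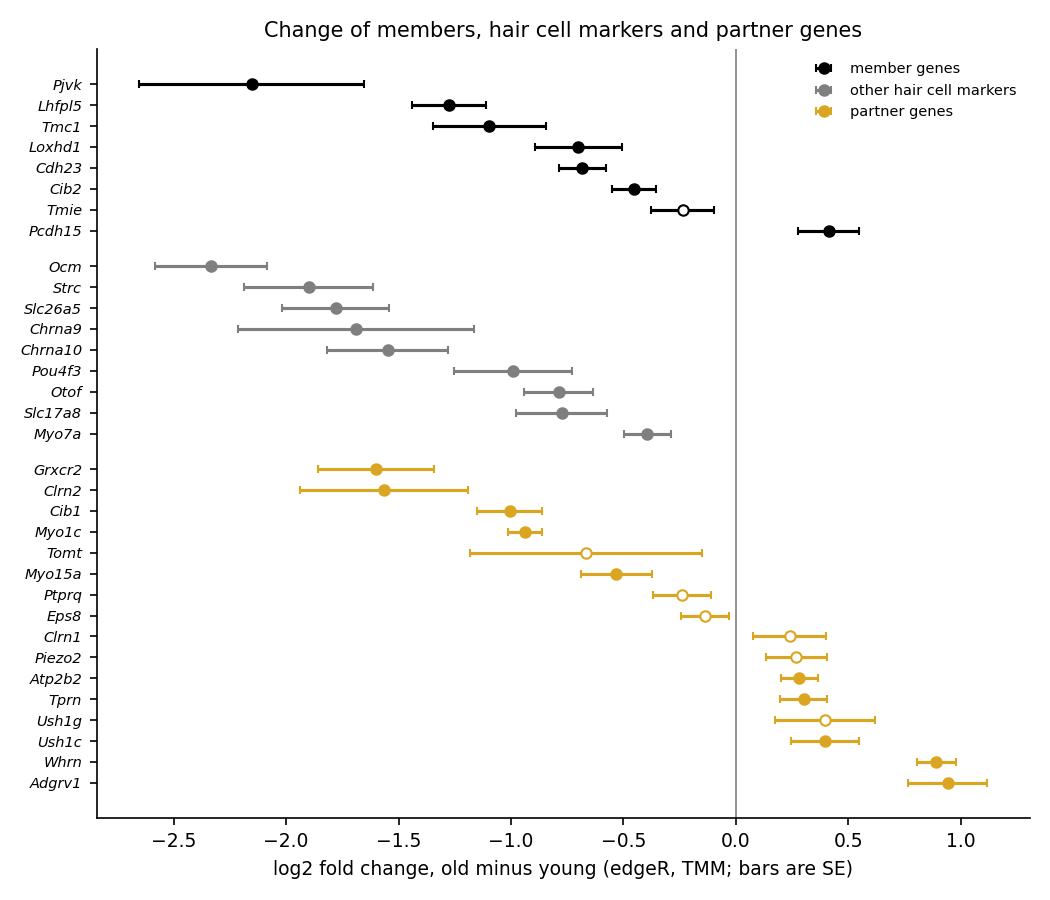
Log2 fold change of old over young libraries (horizontal axis; edgeR with TMM, bars are the SE) for the 8 tested genes of the complex (black), 9 hair cell markers (grey) and the other tested partner genes (yellow), with filled points for an adjusted p under 0.05. Pcdh15 at 0.41 is the only black point above 0, and Tmie, open at −0.24, lies slightly above 0 with library totals alone or in FPKM.

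Of the other pairs, Tmie over Tmc1 was higher in old libraries, with log2 ratios of 0.98, 2.04 and 1.11 in old 1, 2 and 3 and 0.63, 0.77 and 0.31 in young 1, 2 and 3. These groups did not overlap, and the difference was 0.81 (exact permutation p = 0.1; adjusted 0.167). Cib2 over Tmc1 differed by 0.59 with overlap (exact permutation p = 0.2; adjusted 0.25). Old 2, the library lowest in Tmc1, carried part of both: without it the differences were 0.47 and 0.37. Lhfpl5 over Tmc1 was −0.27 ± 0.43 in old libraries and −0.16 ± 0.14 in young libraries, a difference of −0.11 within the spread (exact permutation p = 0.8). It was 0.062 without old 3, and in FPKM it was −0.49 with no overlap (exact permutation p = 0.1). Tmc2 over Tmc1 is set by the added 0.5 CPM, since Tmc2 was at the floor, and nothing is read from it.

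Loxhd1 codes for a protein of PLAT domains along the membrane of the stereocilia and lies on chromosome 18. Old 1, 2 and 3 had 176, 126 and 129 counts, or 6.04, 4.23 and 4.46 CPM. Young 1, 2 and 3 had 232, 287 and 309 counts, or 6.50, 8.06 and 9.41 CPM. Old 1 came close to young 1, but no old library reached a young one. The averages were 4.91 ± 0.99 CPM in old libraries and 7.99 ± 1.46 CPM in young libraries (SD, n = 3 each), with a log2 fold change of −0.70 ± 0.19 (SE; edgeR adjusted p = 0.0117). The call ended with library totals alone (−0.42, adjusted p = 0.0757) and on log2(FPKM + 1) and log2(FPKM + 0.1) (−0.19 and −0.37, limma adjusted p = 0.143 and 0.186). In FPKM the groups overlapped, at 0.72 ± 0.13 in old libraries and 0.957 ± 0.121 in young libraries.

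Pjvk codes for pejvakin, a member of the gasdermin family that is needed by hair cells and auditory neurons, and lies on the plus strand at chr2:76650273-76658554. It had 6, 8 and 2 counts in old 1, 2 and 3, or 0.206, 0.268 and 0.0692 CPM. It had 24, 24 and 37 counts in young 1, 2 and 3, or 0.672, 0.674 and 1.13 CPM. The old libraries were all far below the young ones. The log2 fold change was −2.15 ± 0.50 (SE; edgeR adjusted p = 0.00477), and it rests on 16 counts in old libraries and 85 counts in young libraries. No old library and all 3 young libraries reached the filter limit of 0.313 CPM. The gasdermin genes Gsdmd (−0.57 ± 0.26) and Gsdme (−0.43 ± 0.22) did not pass the test, and Gsdma was near 0 in both groups.

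The results depended on the scaling. The TMM factors were 1.09 to 1.11 in old libraries and 0.863 to 0.963 in young libraries, and the cause of this difference was not tested. With library totals alone the median log2 fold change of all genes moved up by 0.27, with TMM on protein-coding genes by 0.13, with log2(FPKM + 1) by 0.17 and with log2(FPKM + 0.1) by 0.27. With TMM on protein-coding genes, 33.7% of all genes were called higher and 20.6% lower, and 6 of the 8 genes of the complex were lower and 1 higher. With library totals alone these shares were 41% and 14.5%, and 4 genes of the complex were lower and 1 higher. On log2(FPKM + 1) they were 38.4% and 13.7%, and 3 genes of the complex were lower and 1 higher. The share of called genes that were higher in old libraries was 49.7% with TMM, 73.9% with library totals alone and 73.7% on log2(FPKM + 1). Set against the moved median, the values with library totals alone came close to those with TMM. Relative to it, Tmie was at −0.24, Cib2 at −0.47, Cdh23 at −0.70, Loxhd1 at −0.71 and Pcdh15 at 0.41. Both scalings move all genes of a library alike, so this closeness was fixed in advance and supports no call. On log2(FPKM + 0.1), relative to its own median, Cdh23 was at −0.49 and Pjvk at −1.75, against −0.70 and −2.17 with TMM. Tmc1 was at −1.09 there, against −1.11 with TMM.

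**Figure D3:**
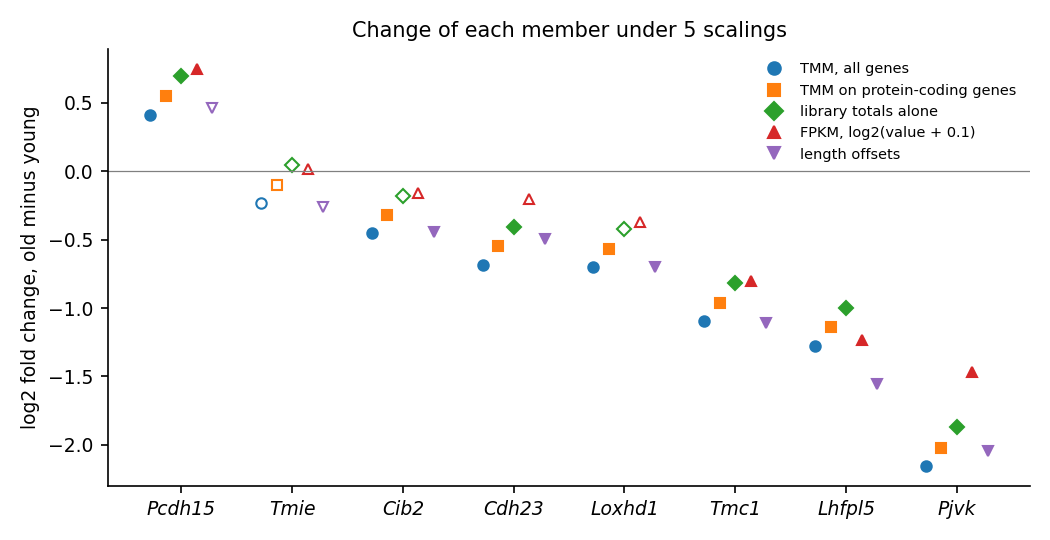
Log2 fold change of old over young libraries (vertical axis) for each of the 8 tested genes under 5 scalings, filled where the adjusted p was under 0.05. Tmc1, Lhfpl5 and Pjvk are filled and below 0 under each of them, Pcdh15 is above 0 under each and open with length offsets, and Tmie changes sign.

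Levels of different genes can be set side by side only per transcript length, in FPKM. In old libraries Cib2 led at 20.2 FPKM, followed by Tmie (4.70), Pcdh15 (4.53), Lhfpl5 (2.62), Cdh23 (2.16), Tmc1 (1.14), Loxhd1 (0.72), Pjvk (0.253) and Tmc2 (0.0133). In young libraries Cib2 led at 22.5 FPKM, followed by Lhfpl5 (6.30), Tmie (4.62), Pcdh15 (2.70), Cdh23 (2.51), Tmc1 (2.01), Loxhd1 (0.957), Pjvk (0.80) and Tmc2 (0.00667). Neighbours in this order whose libraries overlapped were Tmie and Pcdh15, and Tmc1 and Loxhd1, in old libraries. In young libraries they were Pcdh15 and Cdh23, Cdh23 and Tmc1, and Loxhd1 and Pjvk. Lhfpl5 and Pcdh15 exchanged places: Lhfpl5 was below Pcdh15 in every old library and above it in every young library.

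The 9 genes summed to 34.7 to 38.2 FPKM in old libraries and 40.5 to 44.0 FPKM in young libraries. Of this sum, Pcdh15 took 12.4% ± 1.18 in old libraries and 6.33% ± 1.31 in young libraries (SD, n = 3 each; exact permutation p = 0.1). Lhfpl5 took 7.22% ± 0.60 in old libraries and 14.8% ± 0.97 in young libraries (exact permutation p = 0.1, n = 3 each). Cib2 held about the same place, at 55.5% ± 1.87 in old libraries and 53.1% ± 1.89 in young libraries, with overlap.

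The question whether the complex moved with other hair cell transcripts was put within each library. The log2 ratio of each gene to the mean of the 9 hair cell markers (each as CPM + 0.5) was compared between groups. For Pcdh15 it was 1.74, 2.14 and 1.84 in old 1, 2 and 3 and 0.48, 0.17 and 0.29 in young 1, 2 and 3, a difference of 1.60 (exact permutation p = 0.1; 0.16 adjusted over 8 genes). Tmie (0.95), Cib2 (0.74), Loxhd1 (0.53) and Cdh23 (0.51) were also higher relative to the markers in every old library than in any young one (exact permutation p = 0.1 each; adjusted 0.16). All 9 markers fell, with a median log2 fold change of −1.55 against 0.014 over all genes tested. A gene without any change would thus also be higher relative to them, and the share of all genes without overlap was not computed. For Pcdh15, higher in every old library while each marker was lower, the separation was fixed in advance. The groups overlapped for Lhfpl5, with ratios of −0.86, −0.46 and −0.62 in old 1, 2 and 3 and −0.43, −0.83 and −0.79 in young 1, 2 and 3, and a difference of 0.035 (exact permutation p = 1.0). In FPKM the difference for Lhfpl5 was −0.30 without overlap (exact permutation p = 0.1). The groups also overlapped for Tmc1 (0.15, exact permutation p = 0.7). An overlap does not show that a gene moves with the markers. Pjvk in old libraries was below the added 0.5 CPM, which sets its ratio: the difference was −0.43 with 0.1 CPM added, 0.23 with 0.5 and 0.45 with 1, and nothing is read from it.

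These ratios depended on which hair cell genes stood for the cell type. The 5 outer hair cell markers (Slc26a5, Ocm, Strc, Chrna9 and Chrna10) had log2 fold changes of −2.33 to −1.55, and the 4 others (Pou4f3, Myo7a, Otof and Slc17a8) of −0.99 to −0.39. Against the 5 outer hair cell markers alone, the difference was 2.01 for Pcdh15, 1.37 for Tmie, 1.15 for Cib2, 0.95 for Loxhd1 and 0.93 for Cdh23. It was 0.56 for Tmc1 and 0.45 for Lhfpl5. Against the 4 others alone, Pcdh15 (1.08) was still higher in every old library (exact permutation p = 0.1). Tmie (0.43) and Cib2 (0.22) were higher only on average, with overlap between the groups (exact permutation p = 0.2 each). Loxhd1 (0.014) and Cdh23 (−0.0053) lay near 0. Tmc1 (−0.37, with overlap) and Lhfpl5 (−0.48, without overlap) were below 0 (exact permutation p = 0.2 and 0.1). The sign for Tmc1, Lhfpl5 and Cdh23 thus changed with the marker list. With all 9 markers it also changed for Tmc1 without old 3 (−0.040) and for Lhfpl5 without old 2 (−0.057), young 2 (−0.037) or young 3 (−0.020).

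**Figure D4:**
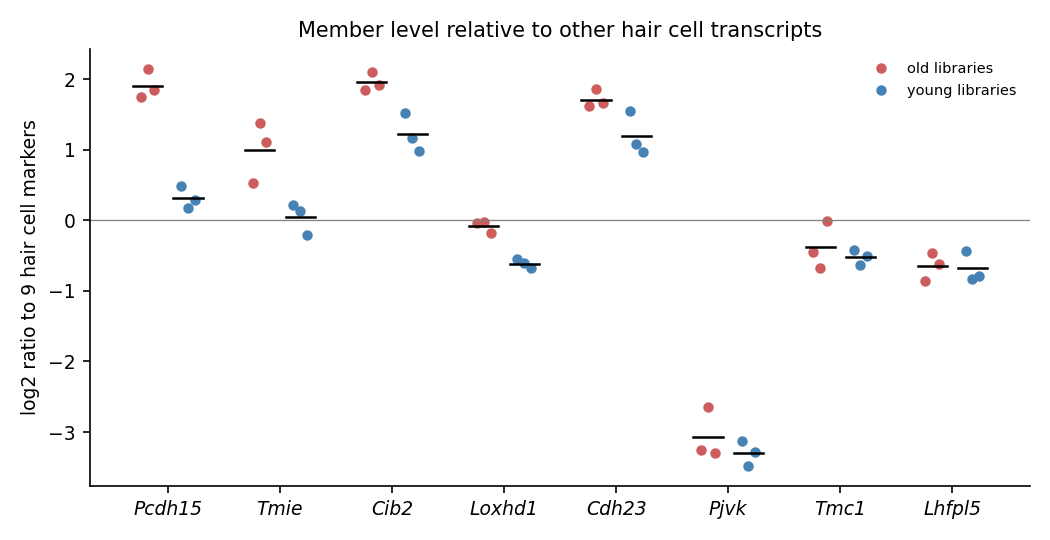
Log2 ratio of each tested gene to the mean of 9 hair cell markers (vertical axis), with the 3 old libraries left of the 3 young libraries and a line at each mean. The groups do not overlap for Pcdh15, Tmie, Cib2, Loxhd1 and Cdh23, whose old libraries are higher, and overlap for Tmc1, Lhfpl5 and Pjvk; the values of Pjvk are set by the added 0.5 CPM.

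Counts and FPKM of the same gene together imply the effective transcript length that the authors' quantification used in each library, which moves when reads spread differently over isoforms. Over 13325 genes the longest implied length was 1.05 times the shortest at the median, and 1.43 times at the 95th percentile. For Tmc1 it was 3822 to 3933 bases. For Cib2, with 1 transcript in GENCODE M21, it was 1174, 1177 and 1176 bases in old 1, 2 and 3. In young 1, 2 and 3 it was 1184, 1179 and 1179 bases, a small difference but without overlap (exact permutation p = 0.1). For Lhfpl5 it was 1404, 1304 and 1249 bases in old 1, 2 and 3 and 1104, 1079 and 1063 bases in young 1, 2 and 3. The old libraries implied longer Lhfpl5 transcripts than the young ones without overlap (exact permutation p = 0.1). The groups were thus apart also for Cib2, with 1 transcript in GENCODE M21. The annotation behind the authors' values is not given and may hold other transcripts of Cib2. The share of all genes without overlap was not computed.

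For Cdh23, with 16 transcripts of which 5 are coding, the order was opposite to that of Lhfpl5. The implied length was 9423, 8485 and 9890 bases in old 1, 2 and 3 and 10250, 10733 and 10466 bases in young 1, 2 and 3 (exact permutation p = 0.1). With these lengths put into the count fit as offsets, the log2 fold change of Cdh23 was −0.50 (edgeR adjusted p = 0.00581), against −0.68 without them. For Pcdh15, with 41 transcripts of which 29 are coding and 1891 to 9104 bases long, the implied length ranged from 4326 to 6559 bases, 1.52 times, with the groups overlapping. That spread was wider than in 96.5% of genes, against 91.8% for Lhfpl5 and 89.1% for Cdh23. The isoforms themselves were not measured separately in the tables used.

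**Figure D5:**
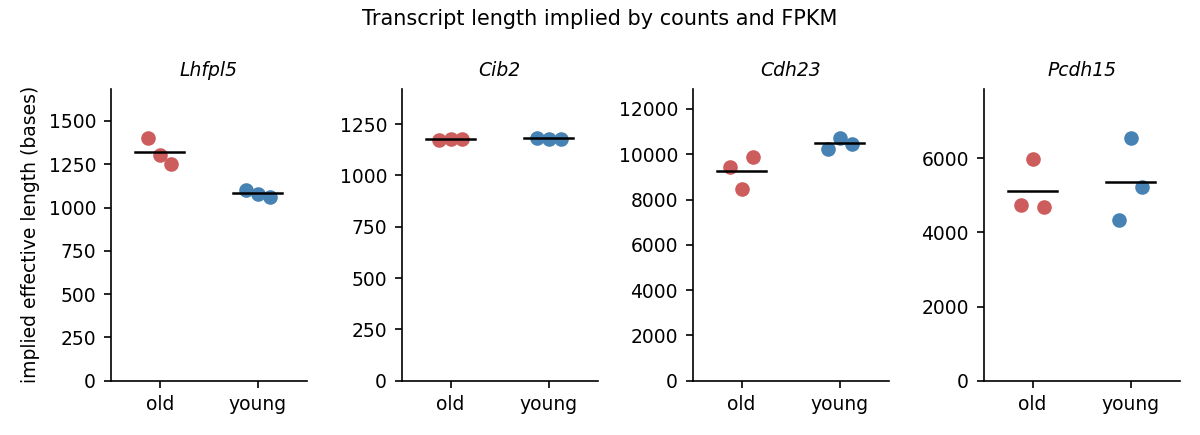
Effective transcript length in bases implied by counts and FPKM (vertical axes, each from 0) for Lhfpl5, Cib2, Cdh23 and Pcdh15, with the 3 old libraries left of the 3 young libraries and a line at each mean. Old libraries are longer for Lhfpl5, shorter for Cdh23 and very slightly shorter for Cib2, and Pcdh15 overlaps between groups and varies from 4326 to 6559 bases.

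The proteins around the complex, which anchor the tip link, move the channel or build the stereocilia, were described from a list of further genes. That list also holds the Cib2 paralogs Cib1 and Cib3, the calcium pump gene Atp2b2 and Piezo2. Of the 18 listed genes that passed the filter, 5 (27.8%) were higher and 7 (38.9%) lower in old libraries, against 26.9% and 27.3% of all genes tested, and 6 did not pass. Higher in old libraries were the scaffold gene Whrn (0.89 ± 0.086), the ankle-link receptor Adgrv1 (0.94 ± 0.18), the tip-link anchor harmonin Ush1c (0.40 ± 0.15), Tprn (0.30 ± 0.10) and the calcium pump Atp2b2 (0.28 ± 0.083). The edgeR adjusted p-values in this order were 4.05e-05, 0.00147, 0.0451, 0.0332 and 0.0155. The count of genes called higher was 8 with library totals alone. It was 2 without young 2 and 3 without old 1, old 2 or old 3.

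Lower in old libraries were Strc, which codes for stereocilin (−1.90 ± 0.29), Grxcr2 (−1.60 ± 0.26), Clrn2 (−1.57 ± 0.37), Cib1 (−1.01 ± 0.15) and 3 myosin genes. Myo1c, a motor once proposed for channel adaptation, was at −0.94 ± 0.076, with 96.7 ± 4.12 CPM in old libraries and 185 ± 9.33 CPM in young libraries (SD, n = 3 each; edgeR adjusted p = 1.98e-05). Myo15a, listed as Myo15, carries proteins to the tips of the stereocilia and was at −0.53 ± 0.16. Myo7a, a motor thought to hold the upper tip link under tension, was at −0.39 ± 0.10, and it is also among the hair cell markers, as is Strc. The edgeR adjusted p-values of these genes other than Myo1c were between 0.000331 for Cib1 and 0.0174 for Myo15a.

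Tomt, which brings TMC proteins to the bundle, had 2.42 ± 1.94 CPM in old libraries and 3.86 ± 1.35 CPM in young libraries and did not pass (−0.67 ± 0.52; edgeR adjusted p = 0.295). Ush1g (0.40 ± 0.22), Eps8 (−0.14 ± 0.11), Clrn1 (0.24 ± 0.16), Ptprq (−0.24 ± 0.13) and Piezo2 (0.27 ± 0.14) also did not pass. Cib3 and Grxcr1 were too rare to be tested.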

How the data were processed

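Total RNA of the cochlear base was depleted of ribosomal RNA and sequenced, per the labels. The authors deposited estimated counts per gene, not scaled, and FPKM (fragments divided by transcript length and by library size). The build was GRCm38.p6, per the submitters' processing notes; aligner, quantifier, annotation and strandedness were not given in the sources used here. Of 42623 entries, 34395 are genes and 8228 circular RNAs, which were not used. Gene names and positions came from the files and RefSeq, transcripts and overlaps from GENCODE M21.

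Estimated counts (20.2% of them not whole) were rounded and compared, old against young, with edgeR 4.0.16 in R 4.3.3: filterByExpr, TMM, quasi-likelihood F tests and Benjamini-Hochberg adjustment over 20157 genes, called at 0.05. The SE was derived from each fold change with its F statistic. Ratios between genes within a library used 2-sided exact permutation tests over libraries. The alternatives used DESeq2 1.42.0, limma 3.58.1, other scalings, filters, pseudocounts and lists, a replicate block, and each library left out. Where an alternative fit leaves 2 libraries in a group, the spread is shared over both groups. The implied length, counts over FPKM and library total, was taken at counts of at least 50 and FPKM of at least 1 for the comparison over genes. On simulated data with 200 changed genes for this comparison (20272 genes), the fit called 36% of those changed by 1.5-fold and 86% by 2-fold. The real comparison called 54.2% of genes, so the adjusted p cuts at a different place there. These shares therefore do not give its power.

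All 9 members are named, with every partner and paralog that passed the test; other partner and paralog genes were added to complete each list. The members, lists and tests were chosen with earlier results of these data known. One listed partner gene is not reported here.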

Additional observations from a re-analysis of the deposited data

How the results depend on the processing

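Tmc1 and Lhfpl5 kept their direction and their call under every alternative. Pjvk did so under those that could be run, and it has none at a mean count of at least 50. Since Pjvk entered the main fit only through the young libraries, its calls support nothing further. Tmie reversed to 0.043 with library totals alone, 0.013 on log2(FPKM + 1) and 0.014 on log2(FPKM + 0.1). The genes of the complex called lower numbered 3 on both FPKM scales and 6 with each library left out. Those called higher numbered 0 with length offsets and between 0 and 1 with 1 library left out. Partner genes called higher numbered 8 with library totals alone and 2 to 4 with 1 library left out. Over all genes, 8259 were called higher and 2920 lower with library totals alone, and 2758 and 2792 lower on log2(FPKM + 1) and log2(FPKM + 0.1). With 1 library left out, 3939 to 5310 were called higher and 4499 to 5911 lower.

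Ratios to the hair cell markers reversed for Tmc1 (−0.37), Lhfpl5 (−0.48), Cdh23 (−0.0053) and Pjvk (−0.29) against pan and inner hair cell markers alone, for Lhfpl5 in FPKM (−0.30) and for Pjvk at a pseudocount of 0.1 CPM (−0.43). With 1 library left out they ran from −0.040 to 0.29 for Tmc1 and from −0.057 to 0.16 for Lhfpl5, and the ratio of Lhfpl5 to Tmc1 ran from −0.35 to 0.062. The cause of these changes was not tested.

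The labels number the libraries 1 to 3 in both groups, but the deviations of same-numbered libraries correlated at −0.082, 0.026 and −0.057, so the numbers were not taken as a pairing. A replicate block left the genes of the complex at 6 called lower and 1 higher and gave 9939 calls over all genes, against 10923 without it. Depth limits Tmc2 and Pjvk, at 2.92 and 16 counts over the old libraries.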

Other observations

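The log2 CPM of Tmc1 over the 6 libraries was correlated with that of 15981 named genes. These had a mean of at least 1 CPM, except Pjvk, which was kept as a member. The genes that followed Tmc1 most closely were Pex26 (Pearson r = 0.997), Serpinf1 (0.996), Cbfa2t2 (0.995), Mrpl21 (0.994) and Npc1 (0.994). They share the libraries and their scaling with Tmc1, and the libraries fall into an old and a young group, so the values are a description. None of these 5 belongs to the complex. Pex26 had 15.7 CPM in old libraries and 20.4 CPM in young libraries. Within the complex, r with Tmc1 was 0.905 for Cib2, 0.902 for Lhfpl5, 0.892 for Loxhd1, 0.886 for Cdh23, 0.771 for Pjvk, 0.488 for Tmie and −0.56 for Pcdh15. Cib2 and Lhfpl5 ranked 1243 and 1333 among the 15981 genes. With each group centred on its own mean, r was 0.67 for Lhfpl5, 0.61 for Loxhd1, 0.58 for Cib2, 0.45 for Cdh23, 0.44 for Pcdh15, −0.068 for Pjvk and −0.13 for Tmie.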
